A study of Mus musculus with 90 samples.

Results

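The genes described here encode the proteins of the mitochondrial ribosome, and were chosen by name alone: their probe carried a single gene symbol starting with Mrpl (large subunit) or Mrps (small subunit) followed by a digit. That rule found 62 genes on 69 probes. Of these, 59 genes on 65 probes had values in at least 2 of the 3 sets of every condition, out of 11600 features (genes, or probes without a gene name) that entered every comparison. Mrpl4, Mrps17 and Mrps36 had too few values and were not tested, and Mrps36 is in any case no longer counted as a subunit of this ribosome. The 59 genes divide into 42 of the large subunit and 17 of the small subunit. Mrps18a and Mrps30 are counted with the large subunit despite their names. By ancestry, 38 have a counterpart in bacterial ribosomes and 21 are found in mitochondria but not in bacteria.

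The cells were RAW 264.7, an established mouse macrophage line, and each treatment was compared with untreated cells cultured in medium for the same time. The treatments lasted 1, 2 or 4 h. They were lipopolysaccharide (LPS, a bacterial cell wall component) at 100 ng/ml, interferon gamma (IFG) at 5 nM, the ATP analogue 2-methyl-thio-ATP (2MA) at 500 µM, LPS with IFG and LPS with 2MA. The labels list lipid binding protein at 100 pM with LPS given alone but do not list it for the combinations, so LPS alone and the combinations may differ in that protein as well. Each of the 15 conditions had 3 numbered sets, and each set had 2 arrays with the dyes swapped, which gave 90 arrays. Nothing in the labels says that the sets were separate cultures, so p-values may measure technical spread only, and the treatments may have shared untreated RNA. All cells were of this line, and a table of ratios holds no level with which the cell type could be checked.

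Values are log2 ratios of treated over untreated RNA, so 0 is no difference and 1 is a doubling. They are given for sets 1, 2 and 3 in that order, or as a mean ± SD over those sets (n = 3). A gene was called changed where limma gave a Benjamini-Hochberg adjusted p under 0.05 over all 11600 features, with no minimum fold. The labels do not state which dye is the numerator. Direction is therefore likely rather than known: with Cy5 over Cy3, all 4 measured of 7 genes listed as raised by LPS (Tnf, Il1b, Ccl4 and Ptgs2) were called higher after 4 h of LPS, at 3.19 to 4.75. For IFG, 3 of 4 measured of 6 listed genes were called higher at 4 h, with Cxcl9 at 4.90, while Ciita was at 0.19.

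The mitochondrial ribosome translates the few messenger RNAs made from mitochondrial DNA, which encode core subunits of the respiratory chain. All of its proteins are encoded in the nucleus, made in the cytosol and imported, and are assembled on ribosomal RNAs made inside the organelle. Macrophages given LPS are known for a shift of energy metabolism from mitochondrial respiration towards glycolysis.

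The share of these genes called in any condition was near that of the whole array, and few changed by much. In single conditions it was mostly lower, such as 5.08% against 11.8% after 4 h of IFG and 8.47% against 17.2% after 2 h of LPS with 2MA. It was higher after 2 h of LPS and 4 h of 2MA. Of the 59, 33 (55.9%) were called in no condition, where 51.7% of all tested features were called in none, and the condition means of those 33 ran from -0.45 to 0.36. Of the 26 that were called in some condition, 17 were called lower each time, 7 higher each time, and Mrpl17 and Mrpl30 lower at 1 h and higher at 4 h. Only Mrpl52 and Mrps6 were called with a mean of at least 2-fold. The called genes therefore did not all move in the same direction, although more of them were called lower than higher.

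**Figure D1:**
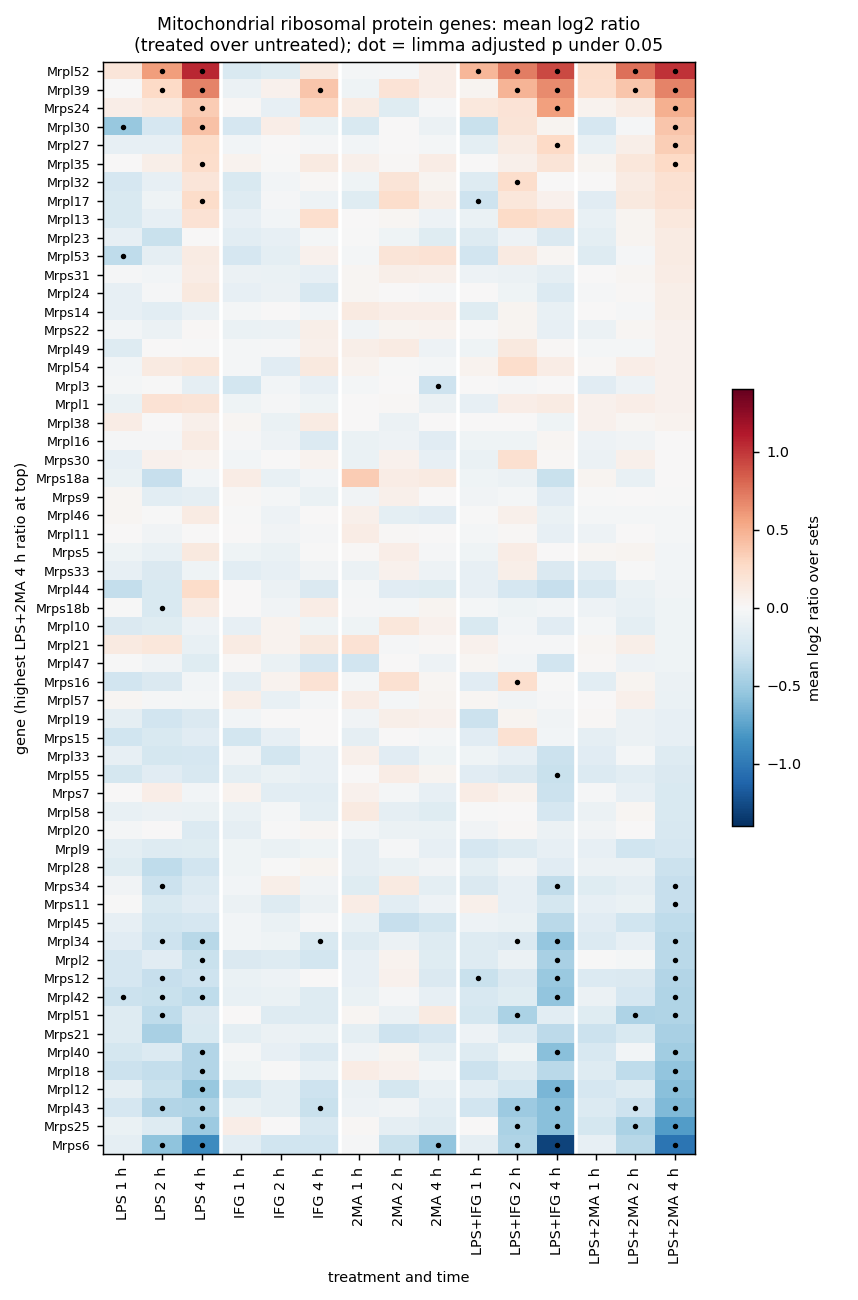
Mean log2 ratio over the sets of each of the 59 genes (rows, ordered by the LPS+2MA 4 h mean) in the 15 conditions (columns), with a dot where limma called the change. Mrpl52 and Mrpl39 lead the higher genes and Mrps6 the lower ones in the LPS-containing conditions at 4 h, while the IFG and 2MA columns hold few dots.

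LPS changed more of these genes with time. After 1 h it lowered 3 of 59, against 2.35% of all features called lower, and raised none, against 3.04% called higher. These were Mrpl30 (-0.53), Mrpl53 (-0.36) and Mrpl42 (-0.30), all of the large subunit. After 2 h it raised 2 and lowered 8, beside 7.59% of all features higher and 7.79% lower. After 4 h it raised 6 and lowered 10, beside 12.5% and 15.5%, so that 27.1% of the members were called and 28% of all features. The members' share called was near the background, and is no result about them as a group. Without set 1 the 2 h count was 2 instead of 10, without set 2 the 4 h count was 10 instead of 16, and the 1 h count of 3 was 0 without set 1 and 1 without set 2 or set 3.

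IFG called few members. None was called at 1 h (1.07% of all features in either direction) or at 2 h (3.28%), where limma's unadjusted p was under 0.05 for 8 and 0 members. At 4 h Mrpl39 rose, against 6.11% of features higher, and Mrpl43 and Mrpl34 fell, against 5.68% lower. Without set 1 or without set 3 only 1 of these 3 calls was left. The agonist 2MA called none at 1 h (1.27%) or 2 h (1.23%), with 1 and 6 members at an unadjusted p under 0.05. At 4 h it lowered Mrps6 and Mrpl3, related to bacterial L3, and raised no member (0.534% of features lower and 1.31% higher). Mrpl3 was at -0.29 (adjusted p = 0.0146). Leaving out 2MA set 1 or set 2 at 4 h left 0 of these 2 calls, and leaving out set 3 left 1.

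LPS with IFG resembled LPS in number, and LPS with 2MA did so at 4 h but called fewer members than LPS at 1 and 2 h. LPS with IFG raised 1 and lowered 2 members at 1 h (4.3% and 2.96% of features), raised 4 and lowered 5 at 2 h (9.68% and 10.6%), and raised 4 and lowered 11 at 4 h (14.9% and 18.5%). Without set 1 the 2 h count was 4 instead of 9, and without set 1 or set 3 the 1 h count was 1 instead of 3. LPS with 2MA called none at 1 h, where 5.36% of features were called in either direction and 8 members had an unadjusted p under 0.05. It raised 2 and lowered 3 at 2 h (8.34% and 8.81%) and raised 6 and lowered 13 at 4 h (14.7% and 18.1%). Without set 3 the 2 h count was 3 instead of 5.

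**Figure D2:**
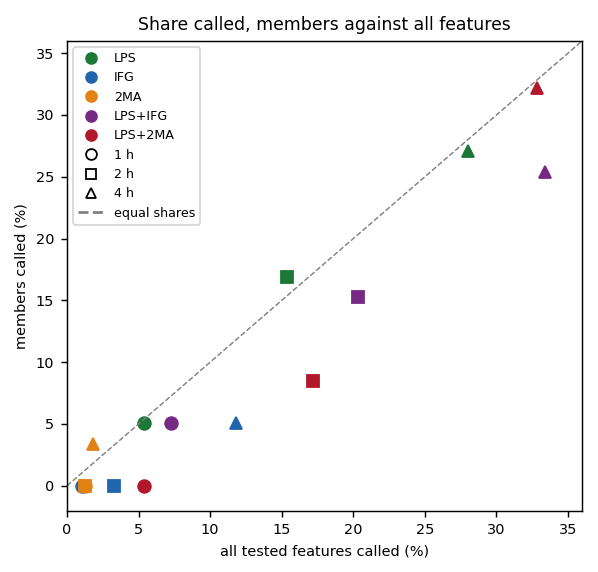
Percentage of the 59 members called by limma (vertical axis) against the percentage of all 11600 tested features called (horizontal axis) in each condition, with colour for the treatment, symbol for the time and a dashed line at equal shares. The points for 2 h of LPS and 4 h of 2MA lie above the line and the others below it, from 0% in conditions with few calls to 32.2% of members and 32.8% of features after 4 h of LPS with 2MA.

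Both subunits held genes that moved each way. After 4 h of LPS, 5 of the 42 large subunit genes rose and 7 fell (median -0.04), and 1 of the 17 small subunit genes rose and 3 fell (median -0.08). Of the 38 genes with a bacterial counterpart 4 rose and 6 fell, and of the 21 mitochondria-specific genes 2 rose and 4 fell. Over all features 12.5% rose and 15.5% fell, so these small counts set no class apart. No difference between these classes was tested. The strongest riser and the strongest faller came from different subunits and classes.

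Mrpl52, a mitochondria-specific large subunit protein, rose most. After LPS its ratios were 0.23, 0.01 and 0.26 at 1 h, 0.30, 0.72 and 0.72 at 2 h, and 0.67, 1.27 and 1.19 at 4 h. All 3 sets at 4 h lay above all 3 at 1 h, and the 4 h mean was 1.05 ± 0.32, a 2.06-fold rise (adjusted p = 8.7e-08). LPS with IFG gave 0.67, 1.11 and 0.98 at 4 h and LPS with 2MA gave 0.93, 0.79 and 1.32, which overlap the LPS sets. Mrpl52 was also called after 1 h of LPS with IFG (0.46 ± 0.26), a call that was lost without set 2, without set 3 and with the replicate block. IFG alone gave 0.11, 0.33 and -0.04 at 4 h and 2MA alone -0.21, 0.58 and -0.10, with sets on both sides of 0.

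Mrpl39, a mitochondria-specific protein of the large subunit, was the steadiest riser. Its ratios after LPS were -0.14, 0.16 and 0.01 at 1 h, 0.24, 0.23 and 0.36 at 2 h, and 0.81, 0.76 and 0.49 at 4 h. The 4 h mean of 0.69 ± 0.17 was a 1.61-fold rise (adjusted p = 3.69e-09). Mrpl39 was the single member raised by IFG, at 0.44, 0.42 and 0.31 after 4 h (adjusted p = 0.000279), and all 6 arrays were above 0. Both of its probes gave like values after 4 h of LPS, 0.71 and 0.67. After 2 h of LPS its call was lost without set 3.

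Mrps24 and Mrpl30 rose less and later. Mrps24, a small subunit protein related to bacterial S3, had ratios of 0.49, 0.54 and 0.04 after 4 h of LPS, where set 3 stood near 0. LPS with IFG for 4 h gave 0.32, 0.67 and 0.71 (adjusted p = 1.63e-05), and after LPS with 2MA 0.53, 0.56 and 0.41. Without set 1 or without set 2 Mrps24 was no longer called after LPS alone.

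Mrpl30, a large subunit protein with a bacterial counterpart, crossed from lower to higher. After LPS its ratios were -0.81, -0.45 and -0.32 at 1 h, -0.22, -0.07 and -0.43 at 2 h, and 0.42, 0.42 and 0.40 at 4 h. The groups at 1 and 4 h did not overlap, and both means were called, at -0.53 (adjusted p = 0.0011) and 0.41 (adjusted p = 0.00295). The 1 h call was lost without set 1. LPS with IFG gave 0.07, 0.02 and 0.04 at 4 h, below every LPS set, but the difference from LPS of -0.37 (SE 0.15) did not pass (adjusted p = 0.25). LPS with 2MA gave 0.69, 0.41 and 0.08 at 4 h, a call that was lost without set 1.

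Mrps6, a small subunit protein with a bacterial counterpart, fell most. After LPS its ratios were -0.01, -0.08 and -0.29 at 1 h, -0.79, -0.56 and -0.34 at 2 h, and -0.94, -0.63 and -1.08 at 4 h. The 4 h sets all lay below the 1 h sets, with a mean of -0.88 ± 0.23 (0.542 of the untreated level, adjusted p = 1.47e-05). With IFG added the 4 h ratios were -1.44, -1.20 and -1.26, all below the LPS sets, at 0.407 of the untreated level. That difference from LPS was -0.41 (SE 0.22) and did not pass (adjusted p = 0.51). LPS with 2MA gave -1.06, -1.02 and -0.99. With 2MA alone for 4 h Mrps6 was at -0.76, -0.41 and -0.48, just inside the threshold (adjusted p = 0.0491) and outside it without any 1 of the sets. After 2 h of LPS the call was lost without set 1, and after 2 h of LPS with IFG without set 1 or set 3, where set 2 was at 0.09.

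Mrps25, a mitochondria-specific small subunit protein, fell at 4 h. Its ratios were -0.44, -0.27 and -0.81 after LPS, -0.68, -0.29 and -0.76 after LPS with IFG, and -0.71, -0.59 and -1.03 after LPS with 2MA. Set 2 was the closest to 0 in each of these conditions, and all 6 arrays of each were below 0. The LPS call (adjusted p = 0.0054) was lost without set 3. The calls at 2 h of both combinations were lost without set 1 or without set 3.

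Mrpl12, Mrpl43 and Mrpl34 fell by smaller amounts. Mrpl12, the stalk protein that binds translation factors and is also known to bind the mitochondrial RNA polymerase, was at -0.71, -0.51 and -0.37 after 4 h of LPS and at -0.79, -0.57 and -0.55 with IFG added. Its probes were at -0.60 and -0.46 after LPS, each called on its own. Mrpl43, a mitochondria-specific large subunit protein, was called lower in 7 conditions, more than any other falling member. It was at -0.58, -0.27 and -0.37 after 2 h of LPS, where the call was lost without set 1, and at -0.56, -0.37 and -0.34 after 4 h. IFG for 4 h gave -0.36, -0.20 and -0.38 (adjusted p = 0.0149), a call lost without set 1 or set 3. After 2 h of LPS with 2MA its call was also lost without set 1 or set 3. Mrpl34, a small basic protein of the large subunit, was at -0.36, -0.45 and -0.36 after 4 h of LPS and at -0.58, -0.52 and -0.51 with IFG added, all below the LPS sets. Mrpl34 was also called after 4 h of IFG and 2 h of LPS with IFG, where leaving out any 1 set removed the call, and after 2 h of LPS, where leaving out set 1 did.

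**Figure D3:**
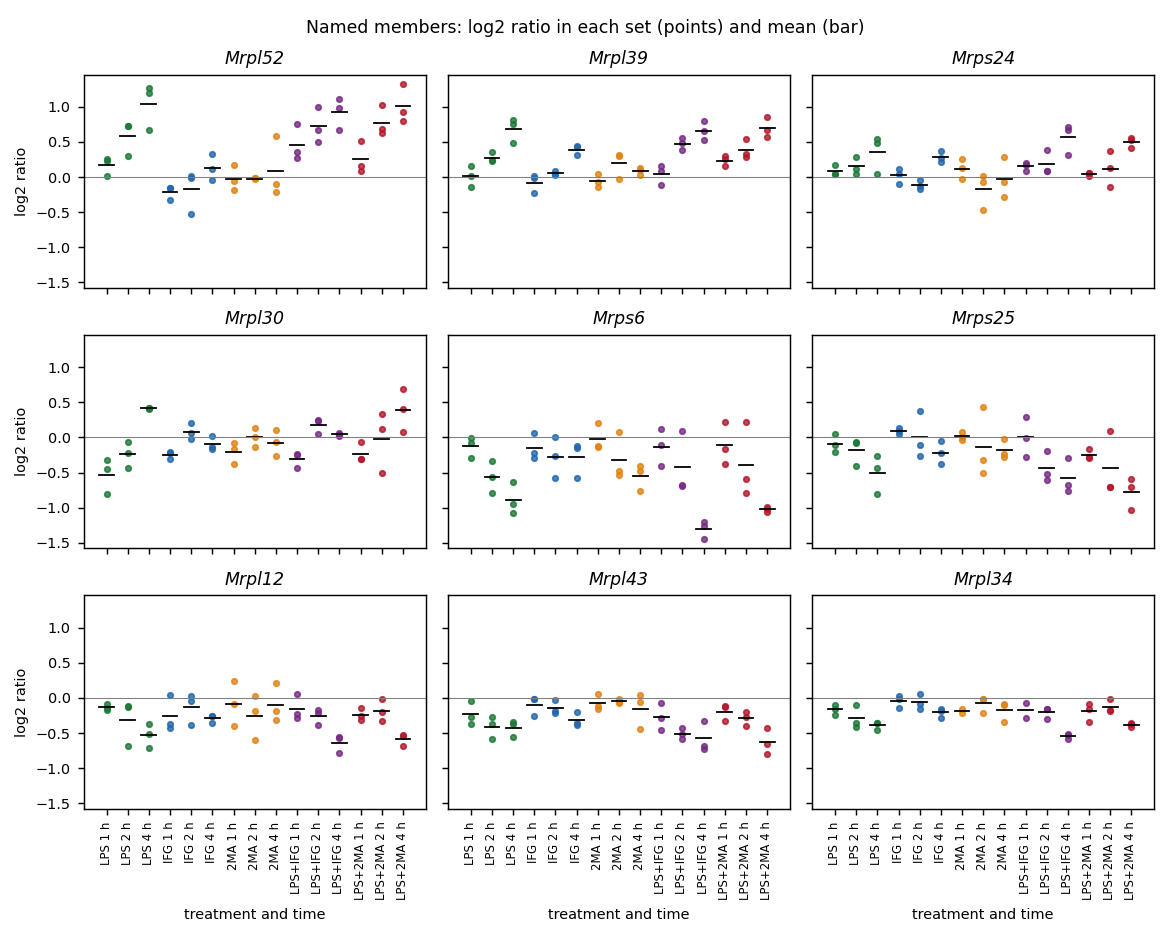
Log2 ratio of treated over untreated RNA in each set (points, coloured by treatment) and the mean (bar) for 9 members across the 15 conditions. Mrpl52 reaches a mean of 1.05 after 4 h of LPS and Mrps6 -1.30 after 4 h of LPS with IFG, while Mrpl30 goes from -0.53 to 0.41 between 1 and 4 h of LPS.

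Other members were called at 4 h of LPS between -0.41 (Mrpl18 and Mrpl40) and 0.26 (Mrpl17). Mrpl2, related to the bacterial protein next to the peptidyl transferase centre, was at -0.31 after LPS and -0.45 with IFG added. Mrps12, related to the decoding-site protein in which bacterial streptomycin resistance arises, was at -0.29 and -0.52. Mrpl42 was lower after LPS at each time, at -0.30, -0.31 and -0.36. Mrpl1 and Mrpl20 had probes that did not agree: after 4 h of LPS a probe of Mrpl1 was at 0.30 (adjusted p = 0.00608) and its other probe at 0.07, and the probes of Mrpl20 were at 0.00 and -0.38 (adjusted p = 0.0145). Averaged over probes, neither gene was called.

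Differences between treatments were few in the fit without pairing. LPS with IFG differed from LPS alone in 0 members at 1 h (0.966% of features), in 1 at 2 h (2.53%) and in 0 at 4 h (3.86%), with 0, 5 and 3 members at an unadjusted p under 0.05. The gene at 2 h was Mrps16, at -0.35, -0.22 and -0.04 after LPS and at 0.24, 0.40 and 0.09 after LPS with IFG, a difference of 0.45 (SE 0.12, adjusted p = 0.0415). That call was lost without set 1 or set 2 of either condition. Same-numbered sets of a time moved together. With that pairing as a replicate block 3 members differed at 2 h (Mrps16, Mrpl13 at 0.38 and Mrpl32 at 0.37). At 4 h 2 members differed with it (Mrpl44 at -0.58 and Mrpl24 at -0.33). The share of all features called with the block is not given here, so these counts have no background beside them. LPS with 2MA differed from LPS in 0 members at 1, 2 and 4 h (0.0776%, 0.0603% and 0.319% of features), with 1, 0 and 0 at an unadjusted p under 0.05. With the block these counts were also 0. The 4 h differences between LPS with 2MA and LPS ran from -0.31 to 0.18 over the members.

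IFG differed from LPS in 0 members at 1 h (2.38%, with 1 at an unadjusted p under 0.05), in 2 at 2 h (6.68%) and in 3 at 4 h (9.53%). Mrpl52 was lower after IFG at both later times, by -0.75 (SE 0.19) at 2 h and -0.91 (SE 0.19) at 4 h, with adjusted p of 0.00925 and 0.000943. At 2 h Mrps34 was higher after IFG by 0.38 (SE 0.12, adjusted p = 0.0467). At 4 h Mrpl30 differed by -0.51 (SE 0.15, adjusted p = 0.0272), and Mrpl24 by -0.36 (SE 0.12) with an adjusted p that rounds to 0.05. Same-numbered sets of IFG and LPS moved together at 4 h, and with that pairing as a replicate block 9 members differed there. The 9.53% belongs to the fit without the block, and the share of all features with the block is not given here. The block added Mrps6 (0.60, adjusted p = 0.00492), Mrps12 (0.31), Mrpl17 (-0.33), Mrpl16 (-0.31), Mrpl39 (-0.30) and Mrpl27 (-0.28). The 2 h count was 1 without set 1 of LPS or without any set of IFG, and 0 without set 2 or set 3 of LPS. The 4 h count was 1 without set 1 or set 2 of LPS or without set 1 of IFG.

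Between 1 and 4 h, 8 members changed their ratio under LPS (13.8% of features), 1 under IFG (4.45%), 0 under 2MA (0.284%, with 2 members at an unadjusted p under 0.05), 9 under LPS with IFG (18%) and 8 under LPS with 2MA (17.9%). Under LPS 7 of the 8 went up, led by Mrpl30 (0.94), Mrpl52 (0.88) and Mrpl39 (0.68), and Mrps6 went down (-0.76). Under LPS with IFG 4 went up and 5 went down, led by Mrpl39 (0.62) and Mrps6 (-1.16). Mrpl39 was the gene that changed under IFG (0.47), a call lost without set 1 at 1 h. The LPS count was 5 without set 1 at 1 h and 4 without set 1 at 4 h. The LPS with IFG count fell to between 3 and 5 without set 1 at either time, set 2 at 1 h or set 3 at 4 h. The LPS with 2MA count was 5 without set 1 at 1 h and 3 without set 1 at 4 h.

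The median over the 59 genes lay slightly below 0 in most conditions. It was -0.12, -0.15 and -0.06 after 1, 2 and 4 h of LPS, where the median over all features was -0.01, -0.01 and 0.00. After 1 h of LPS 83.1% of the members were below 0, and 53.4% of all features. The lower median was not particular to these genes: 28 of 32 cytosolic ribosomal protein genes were below 0 there, with a median of -0.14. The size depended on the dye: with treated RNA in Cy5 the members' median after 1 h of LPS was -0.16, and with treated RNA in Cy3 it was -0.03, equal to the -0.03 of all features on those arrays. In each of the 15 conditions the Cy5 median was the lower, at -0.21 to -0.09 against -0.13 to 0.09 for Cy3. The averaged ratios hold both orientations equally. The distance between the dyes was not constant. The Cy5 and Cy3 medians were -0.20 and 0.04 after 1 h of LPS with 2MA, and -0.20 and -0.13 after 4 h of LPS with IFG. What part of the lower averaged median comes from the dyes was not tested. With treated RNA in Cy5 alone 19 members were called after 1 h of LPS, and with treated RNA in Cy3 alone 0, instead of 3 with both. The share of all features called with each dye alone is not given here, so these counts are no result about the members as a group.

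**Figure D4:**
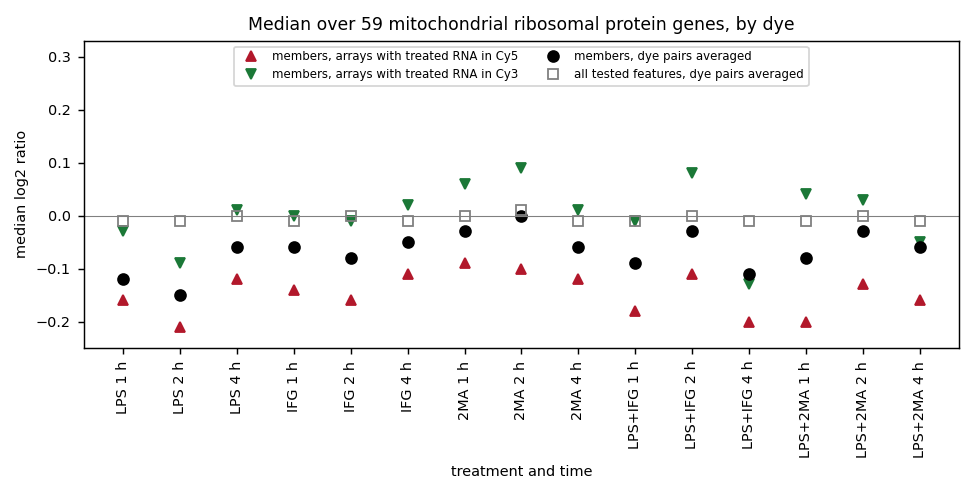
Median log2 ratio over the 59 members in each condition, from arrays with treated RNA in Cy5 (triangles up), in Cy3 (triangles down) and averaged over dye pairs (filled circles), beside the median of all tested features (open squares). The Cy5 median lies below the Cy3 median in all 15 conditions, by as much as -0.20 against 0.04 after 1 h of LPS with 2MA.

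Several members that changed stood beside genes that changed the same way. The neighbours were looked up in the RefSeq gene table after the members' values had been seen, as genes that overlap a member or lie within 5000 bases of it. Of the 16 members called after 4 h of LPS, 11 had a measured neighbour outside the family, in 13 pairs. In 9 of these pairs the neighbour was called as well, and in all 9 it moved in the member's direction. The measured pairs described below come from these 9. In the other pairs the neighbour was not called, such as Tcp1 at 0.08, which overlaps Mrpl18. Over all tested genes the neighbour of a called gene was itself called in 36.4% of pairs, and 73% of those neighbours moved in its direction. Counted over every pair with a called gene, the neighbour was called in the same direction in 26.6% of 1160 pairs. Around the 43 members that were not called, 8 of 28 neighbours were called. After 4 h of LPS with IFG the neighbour of a called member moved with it in 10 of 14 pairs (29.5% over all genes), and after LPS with 2MA in 10 of 15 (29.3%). No test was made of these counts, and where in a transcript each probe lies was not examined.

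Mrpl52 lies beside Mmp14, which encodes a membrane-bound matrix metalloproteinase. Mmp14 was at 0.18, 0.64 and 1.06 after 1, 2 and 4 h of LPS, and Mrpl52 at 0.17, 0.58 and 1.05. Like Mrpl52, Mmp14 was not called after IFG or 2MA alone at any time. Mrps6 overlaps Slc5a3, which encodes a sodium-coupled myo-inositol transporter. Slc5a3 was at -1.22, -1.27 and -0.40 after 4 h of LPS (mean -0.96, adjusted p = 0.00477) and at a mean of -1.43 after LPS with 2MA. At 2 h of LPS Slc5a3 was not called (-0.21) whereas Mrps6 was (-0.56). Mrps25 overlaps Nr2c2, an orphan nuclear receptor gene, with means of -0.51 and -0.50 after 4 h of LPS. Nr2c2 was also called after 4 h of 2MA (-0.58, adjusted p = 0.00362), where Mrps25 was at -0.18.

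Mrpl34 lies beside Abhd8, which encodes a predicted hydrolase and was at -0.89 ± 0.21 after 4 h of LPS, further from 0 than Mrpl34. Mrpl30 lies beside Mitd1, which encodes a protein of the final step of cell division. Mitd1 was at 1.97, 2.08 and 1.05 after 4 h of LPS, but after 2 h of IFG it was at 0.95 (adjusted p = 0.00015) and Mrpl30 at 0.09. No pair was alike throughout: Mmp14 was at 0.17 and 0.39 after 1 and 2 h of LPS with IFG and was not called, whereas Mrpl52 was called at both times, at 0.46 and 0.72. Mrpl39 lies beside Mir155hg, the precursor gene of miR-155, which macrophages are known to induce after LPS; it was not measured here.

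**Figure D5:**
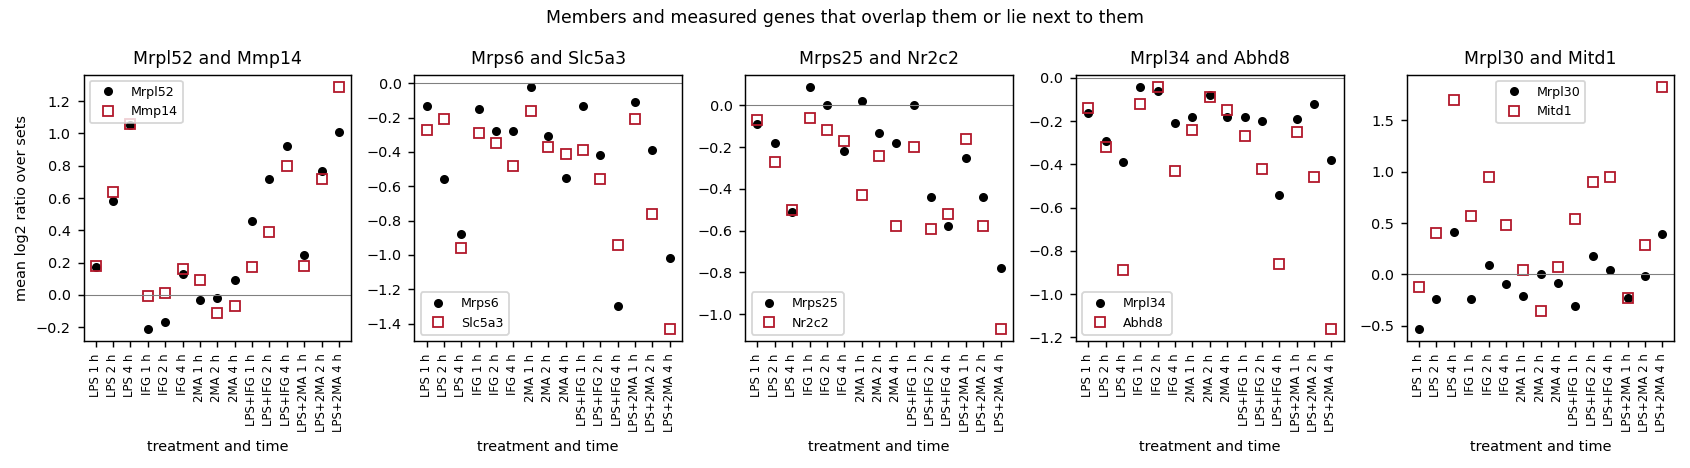
Mean log2 ratio over the sets in the 15 conditions for 5 members (filled circles) and a measured gene that overlaps each or lies within 5000 bases of it (open squares). Mrpl52 and Mmp14 are at 1.05 and 1.06 after 4 h of LPS, while Mitd1 (1.70) lies far above Mrpl30 (0.41) there.

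Promoters of these genes are known for sites of ETS-family factors such as GABP and of nuclear respiratory factor 1 (NRF1). In the RefSeq promoter table (GRCm38.p6, 250 bases before to 50 after the start of a gene), 54 of the 59 members had an entry. On either strand, the ETS/GABP letters CCGGAAG stood in 20 of 54 (37%), the NRF1 letters CGCATGCG in 6 (11.1%), the YY1 letters AAGATGGC in 9 (16.7%) and the E-box CACGTG, a Myc-type site, in 2 (3.7%). Over 7761 tested genes with an entry the shares were 14.7%, 3.72%, 3.97% and 10.7%, and 9.93%, 2.07%, 3.19% and 8.09% over all 27025 genes with a promoter there. The promoters of members and of tested genes were alike in base composition, with a median of 58.7% and 58.3% G and C. A match of letters is a description and not a site. The 150 bases before the start are printed, 5′ to 3′ on the strand of the gene, for the strongest risers Mrpl52 (chr14:54426759-54426908, plus strand) and Mrpl39 (chr16:84735245-84735394, minus strand), and for the fallers Mrpl43 (chr19:45006443-45006592, minus strand) and Mrps6 (chr16:92058186-92058335, plus strand). They are shown to let the windows of risers and fallers be compared. Capitals mark CCGGAAG on either strand in Mrpl52 and Mrpl43 and CGCATGCG in Mrpl39, and none of the motifs searched is in the Mrps6 window. None is in the promoters of the fallers Mrps25 and Mrpl12 either. Other members called lower do hold a match: CCGGAAG stands in the promoters of Mrpl34, Mrpl18, Mrpl51 and Mrps12. The riser Mrps24 holds AAGATGGC, and the riser Mrpl30 is not among the members with a match. Whether risers and fallers differ in these letters was not tested.
Mrpl52: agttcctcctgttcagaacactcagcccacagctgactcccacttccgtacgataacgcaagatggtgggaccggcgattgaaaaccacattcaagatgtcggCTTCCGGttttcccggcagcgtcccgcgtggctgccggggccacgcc
Mrpl39: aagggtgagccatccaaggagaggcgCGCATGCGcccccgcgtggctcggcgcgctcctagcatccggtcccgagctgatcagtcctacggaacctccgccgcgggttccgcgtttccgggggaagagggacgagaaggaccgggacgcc
Mrpl43: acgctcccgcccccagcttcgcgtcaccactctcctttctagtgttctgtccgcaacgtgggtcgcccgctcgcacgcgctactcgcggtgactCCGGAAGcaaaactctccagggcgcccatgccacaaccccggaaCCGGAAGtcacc
Mrps6: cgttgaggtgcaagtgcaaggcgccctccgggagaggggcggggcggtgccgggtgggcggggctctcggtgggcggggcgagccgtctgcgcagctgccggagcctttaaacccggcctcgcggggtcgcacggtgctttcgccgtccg

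Listed regulators moved in both directions. Myc, a transcription factor known to drive ribosome production, was at 2.84, 4.19 and 3.95 after 1, 2 and 4 h of LPS, at -1.43, -1.06 and -0.26 after IFG, and at 2.54, 1.62 and 1.39 after 2MA. At 4 h of LPS 3 of 9 measured regulators rose and 1 fell, beside 12.5% and 15.5% of all features. Beside Myc these were Max, the partner of Myc (0.82), Gabpa, the DNA-binding subunit of GABP (0.52), and Mycn (-0.64). Max had been called lower at 2 h (-0.46, limma adjusted p = 0.0374), at -0.71 and -0.21 in sets 1 and 2. Set 3 held no value for Max at 2 or 4 h of LPS. The members' median after 4 h of LPS was -0.06 and after 4 h of 2MA -0.06.

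Genes of the same pathway that carry other names included some that changed. Their counts are to be read against all features, of which 12.5% rose and 15.5% fell after 4 h of LPS, 14.9% and 18.5% after LPS with IFG, and 14.7% and 18.1% after LPS with 2MA. Of 6 mitochondrial ribosomal proteins listed under other names 4 were measured, 1 of them Mrpl58, which is also a member. After 4 h of LPS, Dap3, a GTP-binding small subunit protein, was at -0.35 (adjusted p = 0.00047) and Ptcd3, a small subunit protein with RNA-binding repeats, at -0.30 (adjusted p = 0.0371), while Chchd1 was at -0.06. Of 7 measured mitochondrial tRNA synthetases and related enzymes (of 20 listed), 3 fell and 0 rose after 4 h of LPS (median -0.27, where the median of all features was 0.00), and 4 fell and 0 rose after each combination. Qrsl1, which completes glutaminyl-tRNA in mitochondria, was at -0.42 after LPS and -0.68 with IFG added, and Hars2, the histidyl-tRNA synthetase, at -0.36 and -0.47.

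Among 11 measured genes of mitochondrial ribosome assembly and ribosomal RNA modification (of 25 listed), 1 rose and 3 fell after 4 h of LPS (median 0.06), and 0 rose and 5 fell with IFG added. With 2MA added 2 rose and 2 fell. Noa1, a GTPase needed for the small subunit, was at -0.63 after LPS and -1.0 with IFG added. Mrm1, a ribosomal RNA methyltransferase, was at -0.58 and -0.83. Of 4 measured translation factors and related enzymes (of 15 listed) 2 fell after 4 h of LPS (median -0.11). They were Pdf, the peptide deformylase (-0.59), and Mtfmt, which formylates the initiator methionine (-0.34). Mtfmt had been called higher after 2 h of LPS, at 0.45 (adjusted p = 0.000598).

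Of 10 measured genes of mitochondrial DNA transcription and upkeep (of 19 listed) 2 rose and 1 fell after 4 h of LPS (median 0.08). Slirp, which binds mitochondrial messenger RNAs, was at 0.71, and Polg, the mitochondrial DNA polymerase, at -0.45. The 32 measured cytosolic ribosomal protein genes, named Rpl or Rps, had medians of -0.14, -0.20 and 0.04 after 1, 2 and 4 h of LPS. Of these genes 0 rose and 1 fell at 1 h, 1 rose and 5 fell at 2 h, and 1 rose and 0 fell at 4 h, where their means ran from -0.15 to 0.33. With IFG added 1 rose and 1 fell at 4 h. The members' medians were -0.12, -0.15 and -0.06 at these times of LPS, and at 4 h their means ran from -0.88 to 1.05. No test was made of the difference between the families.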

How the data were processed

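Each deposited number is a log2 ratio between the 2 colours of a custom Agilent array. The unit was read from the numbers, which run both ways and end at the log2 of 100 (6.64). How the authors read, background-corrected and normalized the arrays was not given in the sources used here. Exact zeros (7.84 to 17.0% of an array) were taken as missing, and 753 of 16281 probes were 0 on every array. The sign was turned on arrays with treated RNA in Cy3, dye pairs were averaged where both arrays had a value, and probes of a gene were averaged, which left 11600 features (9760 named) from 13711 probes, with 1.04% of replicate values missing. Dye pairs correlated negatively before turning in 38 of 45 cases, and in 45 of 45 with each probe's mean removed. No arrays held identical values. Precision is limited by the number of arrays, and the residual SD had a median of 0.199 over features and 0.171 over members. Two-sided tests came from limma 3.58.1 in R 4.3.3, with a mean for each of 15 conditions fitted to 45 replicates, checked on simulated data. P-values were adjusted by Benjamini and Hochberg within each of the comparisons. Python 3.11.15 with pandas 2.3.3 and matplotlib 3.10.9 did the rest.

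Sets with the same number deviated together, with a correlation over 0.1 in 18 of 18 pairs of LPS with a combination (lowest 0.119) and in 8 of 9 pairs of IFG with LPS (the exception, at -0.031, lay at 2 h), so sets count as paired there but not for IFG with LPS at 2 h. The fit with set as a block was an alternative. Others were equal spread of arrays, each dye alone, centring, zeros kept, probes apart, complete features, a 2-fold minimum and each set left out. Named members were the 4 lowest and 3 highest calls of LPS, IFG, 2MA and LPS with IFG at the time with most calls and with the same sign on all arrays, the 4 called in most conditions, and the one of widest range. Other genes came from lists of at most 2 named calls each, plus Myc, the direction genes and ribosomal proteins under other names. Genes outside the rule that are named beside a count were chosen after their values were seen. Members and lists were chosen with earlier results of these data known.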

Additional observations from a re-analysis of the deposited data

Results flagged for a closer look

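The ratio of some of the 9 named members differed between 1 and 4 h of a treatment, by a limma test of the difference itself. These members were named for their calls at 4 h, so the choice itself favours such a difference. Over all features 13.8% differed under LPS, 4.45% under IFG, 18% under LPS with IFG and 17.9% under LPS with 2MA. All differences are 4 h less 1 h, with the SE, on the log2 scale. Under LPS the ratio went up for Mrpl30 by 0.94 (SE 0.15), Mrpl52 by 0.88 (SE 0.19), Mrpl39 by 0.68 (SE 0.11) and went down for Mrps6 by -0.76 (SE 0.22). Under IFG the ratio went up for Mrpl39 by 0.47 (SE 0.11). Under LPS with IFG the ratio went up for Mrpl39 by 0.62 (SE 0.11), Mrps24 by 0.42 (SE 0.14) and went down for Mrps6 by -1.16 (SE 0.22), Mrps25 by -0.58 (SE 0.20), Mrpl12 by -0.48 (SE 0.17), Mrpl34 by -0.36 (SE 0.11). Under LPS with 2MA the ratio went up for Mrpl52 by 0.76 (SE 0.19), Mrpl30 by 0.62 (SE 0.15), Mrpl39 by 0.47 (SE 0.11), Mrps24 by 0.46 (SE 0.14) and went down for Mrps6 by -0.92 (SE 0.22), Mrpl43 by -0.43 (SE 0.13). The adjusted p of these differences ran from 1.53e-05 to 0.0411. Mrpl39 passed in each of these 4 treatments, and no named member passed under 2MA. Whether the change with time differed between treatments was not tested.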

How the results depend on the processing

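The counts of members called kept within 1.5 times their value in 191 of 261 recomputations other than leaving out a set. In such recomputations 30 of 370 calls of named members were lost and none turned. That none turned is partly fixed by the choice of members. Where a member was named because every array agreed in direction, neither dye alone could turn its call. Leaving out a set lost 30 of 141 calls of named members. The values that moved follow. Counts among them stand without the share of all features called in the same recomputation. Requiring at least 2-fold left 1 member at 4 h of LPS, 1 at 4 h of LPS with IFG (and 1 for its 4 h less 1 h), 2 at 4 h of LPS with 2MA and 0 elsewhere. With treated RNA in Cy5 alone the counts at 1, 2 and 4 h were 19, 18 and 16 for LPS (the last within its bound), 3, 4 and 12 for IFG and 7, 2 and 4 for 2MA. They were 17 at 1 h and 23 at 4 h of LPS with IFG, 11 and 13 at 1 and 2 h of LPS with 2MA, and 0 or 1 for IFG with LPS or IFG less LPS at 2 h. For 4 h less 1 h they were 4 (LPS), 0 (IFG), 5 (LPS with IFG) and 4 (LPS with 2MA). The Cy5 medians that moved were -0.164 and -0.122 at 1 and 4 h of LPS, -0.139 and -0.156 at 1 and 2 h of IFG, -0.096 at 2 h of 2MA, -0.200 at 4 h of LPS with IFG, and -0.203, -0.133 and -0.159 at 1, 2 and 4 h of LPS with 2MA. With treated RNA in Cy3 alone the counts were 0 (LPS 1 h), 7 (IFG 4 h), 1 and 11 (2MA 1 and 2 h), 1 and 14 (LPS with IFG 1 and 2 h), 1 (LPS with 2MA 1 h), 0 or 1 for differences between treatments, and 4, 0, 4 and 4 for 4 h less 1 h in LPS, IFG and the combinations. The Cy3 medians were -0.031 and 0.005 at 1 and 4 h of LPS, 0.000 at 1 h of IFG, 0.055 and 0.088 at 1 and 2 h of 2MA, 0.079 at 2 h of LPS with IFG and 0.042 at 1 h of LPS with 2MA.

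With the arrays scaled to equal spread the counts were 1 at 1 h and 1 at 4 h of IFG, 1 and 4 at 1 and 2 h of LPS with IFG, 1 at 1 h of LPS with 2MA, 0 or 1 for LPS with IFG at 2 h and IFG at 4 h less LPS, and 2 and 3 for 4 h less 1 h in LPS with IFG and LPS with 2MA. The median at 1 h of LPS with 2MA was -0.096 with scaling and -0.074 with centring. Centring, complete features, probes apart and zeros kept each left 1 call at 4 h of 2MA; centring and probes apart left 1 for IFG less LPS at 2 h, and probes apart gave 2 for IFG at 4 h less 1 h. The paired fit with set as a replicate block gave 1 member at 1 h of LPS, 1 at 4 h of 2MA, 3 and 2 for LPS with IFG less LPS at 2 and 4 h, and 9 for IFG less LPS at 4 h. It changed 1 call of a named member, Mrpl52 at 1 h of LPS with IFG.

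Leaving out a set gave counts of 0 to 1, 2 to 8 and 10 to 14 at 1, 2 and 4 h of LPS, 1 to 2 at 4 h of IFG, 0 to 1 at 2 and 4 h of 2MA, 1 to 2 and 4 to 7 at 1 and 2 h of LPS with IFG, and 3 to 5 at 2 h of LPS with 2MA. For LPS with IFG and for IFG less LPS at 2 h they were 0 to 1, for IFG less LPS at 4 h 1 to 3, and for 4 h less 1 h 4 to 8 (LPS), 0 to 1 (IFG), 3 to 8 (LPS with IFG) and 3 to 8 (LPS with 2MA). The medians were -0.123 to -0.089 (LPS 1 h), -0.093 to -0.063 (IFG 1 h), -0.030 to 0.009 (2MA 2 h) and -0.090 to -0.069 (LPS with 2MA 1 h). The cause of these changes was not tested, except that a 2-fold minimum and fewer samples allow fewer calls by construction. A ratio near the noise of an array has only the precision of its signal over background, which the deposited table does not hold.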
